A study of Mus musculus with 103 samples.

Results

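Of 48526 rows in the table of gene levels, 21814 had a mean of at least 0.5 TPM (a transcript level scaled to transcript length and to the total of each library) in HO_TASTPM or WILD hippocampus, and 128 of these differed in HO_TASTPM mice in the same direction at every age sampled. A gene was taken when its HO_TASTPM minus WILD difference, computed on the log2(TPM + 0.5) scale at 2, 4, 8 and 18 months, kept its sign and reached a size of at least 0.5 at all 4 ages. At every age 77 of the 128 were higher in HO_TASTPM mice and 51 were lower. The genes were thus chosen by the measured HO_TASTPM and WILD levels, and these differences are given as a description. The tests were run in lines the choice did not use. Tests against WILD share the WILD libraries with the choice, so they are not fully independent of it.

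Total hippocampal RNA came from male mice at 2, 4, 8 and 18 months. HO_TASTPM mice (15 libraries) are homozygous, and HET_TASTPM mice (16 libraries) hemizygous, for a mutant human APP transgene together with the transgene of the TPM line. TAS10 mice (13 libraries) are hemizygous for the APP transgene alone, TPM-line mice (14 libraries) for the other transgene alone, and TAU mice (14 libraries) for mutant human tau under the Camk2a promoter. WILD mice (31 libraries) carry no transgene, and all lines share the C57BL/6J label. Transgenes of the TASTPM, TAS10 and TPM lines are driven by the Thy1 promoter, which acts in neurons, so each transgenic line is a model of neuronal expression from its own insertion. Each line and age held 3 or 4 transgenic libraries, except TAS10 at 4 months and TAU at 18 months with 2 each, and 7 or 8 WILD libraries.

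APP is the membrane protein from which amyloid-beta is cut, and a transgene built on the Thy1 cassette can add transcripts that resemble the host gene. A transgenic line can also carry stretches of chromosome from the founder strain, an interrupted gene at the insertion site, and the tissue response to plaques, which appear with age and which microglia surround. In bulk RNA, fewer cells of a type and less RNA per cell cannot be told apart.

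The largest pair of values in the set came from a mitochondrial gene and its nuclear copy, whose sequences are shown because a single base separates them over the compared length. mt-Nd3, a subunit gene of respiratory complex I, lies at chrM:9459-9806 on the plus strand, and Gm28438, an unprocessed pseudogene, at chr1:24612775-24613119 on the minus strand (GRCm38, GENCODE M21). Over 345 bases compared, the pair differed by T3C, with positions counted from 1 at the 5′ end of mt-Nd3 and the mt-Nd3 base first. The first 60 bases of each transcript follow, 5′ to 3′, with the differing base in capitals.
mt-Nd3: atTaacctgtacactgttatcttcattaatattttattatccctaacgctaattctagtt
Gm28438: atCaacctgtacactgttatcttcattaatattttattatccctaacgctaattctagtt

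Several libraries stood apart before any gene was compared. A region score was the mean of listed genes of regions next to the hippocampus minus that of listed genes of hippocampal excitatory neurons. Each gene entered on the log2 scale relative to its WILD median. In 12 libraries this score exceeded 1.5, with the lowest of these at 1.71 and the highest of the others at 1.33. They were 5 HO_TASTPM libraries (1 of 4 at 2 months, 3 of 4 at 4 months and 1 of 4 at 8 months), 1 TAS10 library, 4 TAU libraries and 2 WILD libraries. Without these libraries, every 4-month HO_TASTPM value rests on replicate 1 alone, and every 4-month TAU value on replicate 4 alone. One library labelled TAS10, replicate 3 at 8 months, had App at 479 TPM and Thy1 at 409 TPM, inside the WILD range of both genes and against its label. Mapt, the mouse tau gene, was 174 TPM in the lowest of the 14 TAU libraries, against 123 to 191 TPM in WILD, and that TAU library was among the 12. All 15 HO_TASTPM libraries carried lane numbers 1 to 5 in their library names, whereas 13 of 16 HET_TASTPM libraries were in lanes 6 to 8, with 22 WILD libraries in lanes 1 to 5 and 9 in lanes 6 to 8. Line and lane therefore could not be fully separated. Lanes 6 to 8 held 1 WILD library at 4 months and 2 HET_TASTPM libraries at 2 months. Comparisons within those lanes rest on few mice, so a gene that did not pass there is not shown to be unchanged.

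Protein-coding genes made up 60 of the 128 (46.9%, against 70.0% of the rows that met the level filter). Short non-coding RNAs, mainly microRNA hairpins, small nuclear RNAs and other small species, made up 33 (25.8%, against 8.09%), pseudogenes 11 (8.59%, against 4.16%), other RNAs such as long intergenic and antisense transcripts 19, and 5 rows had no place in the annotation. In 34 rows the longest transcript had at most 200 bases. Of 123 placed genes, 15 lay on chromosome 1 (12.2%, against 6.28% of placed rows that met the filter) and 16 on chromosome 2 (13.0%, against 8.29%). In 16 neighbourhoods, 36 genes (29.3%) stood within 1 Mb of another of the set, and 15.3% of the other placed rows stood within 1 Mb of a gene of the set.

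Few of the 128 were clear of the control spread in every library. In 7 genes all 15 HO_TASTPM libraries lay beyond all 31 WILD libraries: Gm28438 and Thy1 were higher, and Entpd4, Crhbp, Tmem132b, mt-Nd3 and Gm16867 were lower. Over all 21814 rows 0.0321% did not overlap, which is these same 7 genes, and the choice of genes used these values. At the limit itself, the higher genes with the smallest differences were AC153954.1 (smallest size 0.5009) and Cd300ld3 (0.5029), and those just outside were Rasa4 (0.4995) and Traf1 (0.4994). Among the lower genes Gm24971 (0.5023) and Gm43500 (0.5027) were just inside, and Adra1d (0.4977) and AC121821.1 (0.495) just outside.

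**Figure D1:**
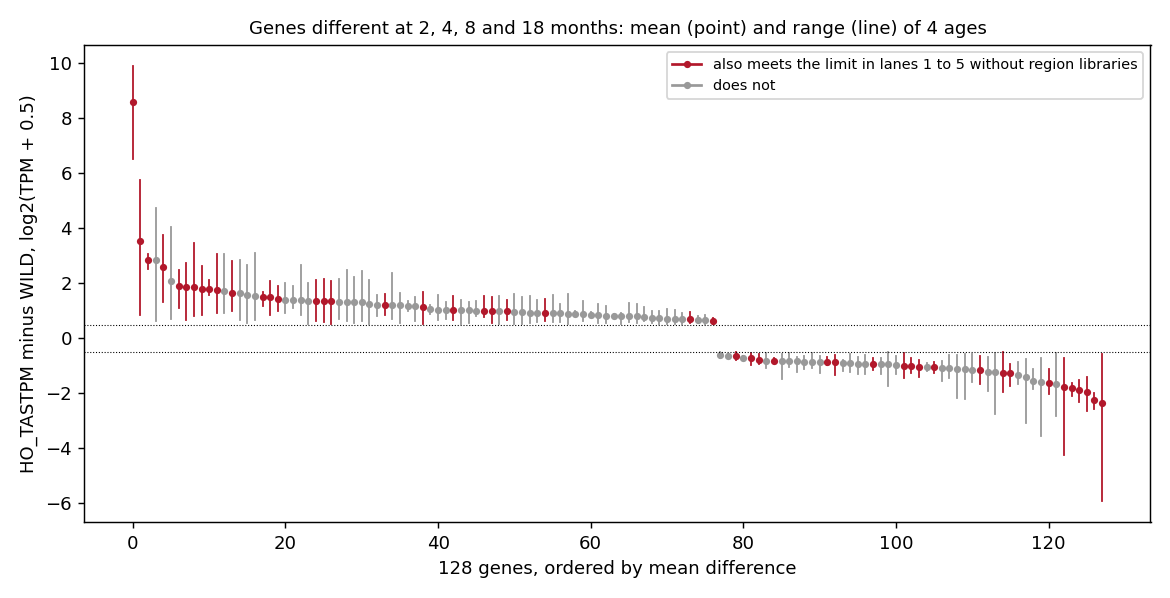
Mean (point) and range over 4 ages (line) of the HO_TASTPM minus WILD difference for each of the 128 genes, on the log2(TPM + 0.5) scale, ordered by the mean, with dotted lines at 0.5 and -0.5. The 77 higher genes lie above the upper line and the 51 lower genes below the lower one, as the choice of genes requires, and the 47 in red also met the limit in lanes 1 to 5 without the region libraries.

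Genes of the transgenes and their promoter came first. Thy1 encodes a surface glycoprotein of neurons, and its row (chr9:44043384-44048579) held 1258 to 5025 TPM in HO_TASTPM libraries (median 3672), 1815 to 3009 TPM in HET_TASTPM libraries (median 2374) and 370 to 529 TPM in WILD libraries (median 432). No HO_TASTPM or HET_TASTPM library overlapped WILD. App (chr16:84949685-85173766) held 532 to 3014 TPM in HO_TASTPM (median 1880), 1300 to 2234 TPM in HET_TASTPM (median 1649) and 386 to 580 TPM in WILD (median 467). One HO_TASTPM library, at 8 months, lay inside the WILD range of App, and it had the highest region score of all, 6.29. The HO_TASTPM minus WILD differences of Thy1 were 2.86, 2.50, 2.96 and 3.07 at 2, 4, 8 and 18 months, and those of App 2.12, 1.66, 1.58 and 1.75. At 2 months, the 3 HO_TASTPM libraries below the region limit had 2318, 2644 and 3014 TPM of App, and the library above it had 1019 TPM.

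In lines that the choice of genes did not use, both rows moved again. Thy1 was higher in HET_TASTPM than in WILD by 2.50 on the log2 scale (SE 0.12, adjusted p = 4.48e-30, limma with Benjamini-Hochberg adjustment over 26272 genes) and in TAS10 than in WILD by 2.41 (SE 0.13, adjusted p = 4.21e-26). App was higher in HET_TASTPM by 1.85 (SE 0.10, adjusted p = 7.13e-26) and in TAS10 by 1.69 (SE 0.11, adjusted p = 1.6e-20). These contrasts share the WILD libraries with the choice of genes, so the same lines were also set against TAU mice, none of which the choice used. Against TAU, Thy1 was higher by 2.67 in HET_TASTPM and by 2.58 in TAS10, and App by 1.79 and 1.63 in the same lines, with adjusted p of at most 3.19e-16. Without the TAS10 library that goes against its label, the TAS10 minus WILD differences were 2.65 for Thy1 and 1.84 for App. TPM-line mice, whose transgene also uses the Thy1 promoter, had 395 to 544 TPM of Thy1 and 394 to 498 TPM of App, against 370 to 529 TPM and 386 to 580 TPM in WILD. Reads of a transgene and of its mouse counterpart cannot be told apart in these gene-level values.

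**Figure D2:**
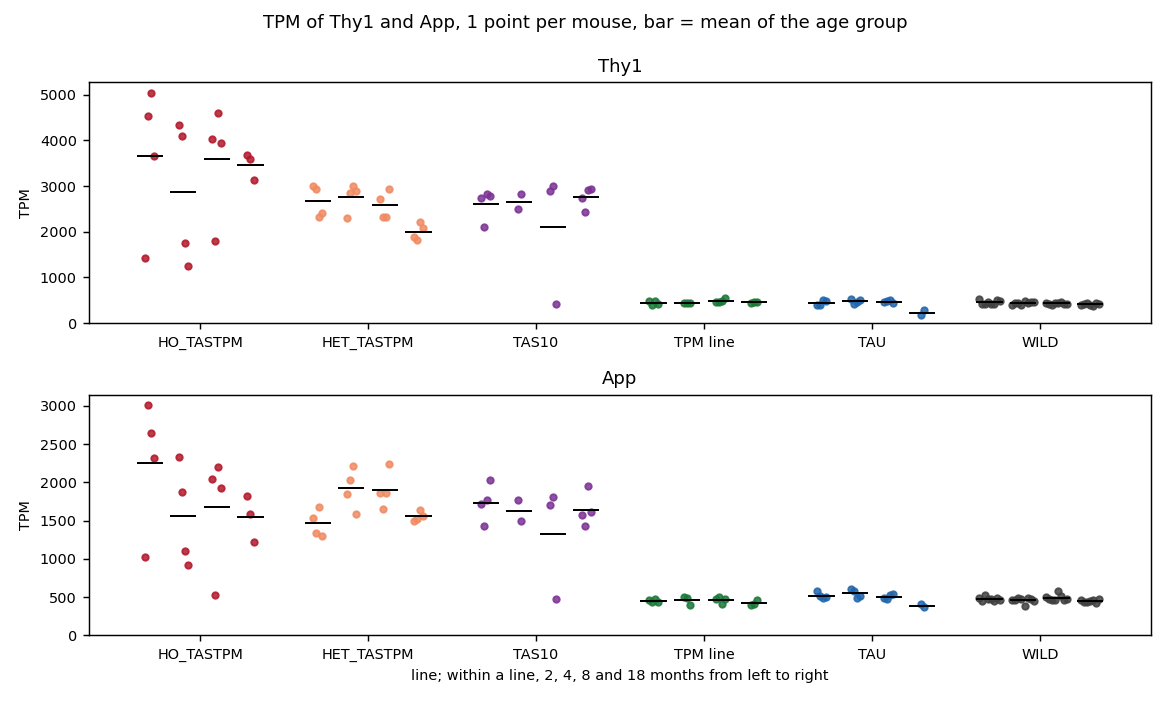
Thy1 and App levels (TPM) in each mouse, by line and, within a line, from 2 to 18 months, with a bar at the mean of each age group. HO_TASTPM, HET_TASTPM and all but 1 TAS10 library stand above WILD for Thy1, and the HO_TASTPM libraries at 532 to 1100 TPM of App are 4 of the 5 with a high region score.

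Of 27 listed genes that process or bind APP, 26 met the level filter and none of these was among the 128. Their median difference, averaged over the ages, was 0.05, against 0.03 over all 21814 rows.

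Counts over the lines set the transgene genes beside the rest. Counts against WILD share the WILD libraries with the choice of genes, and those against TAU do not. In HET_TASTPM minus WILD, 32 of the 128 passed the test (25.0%, against 9.61% of all genes), of which 27 moved as in HO_TASTPM mice, 19 higher (8.08% of all genes were) and 8 lower (1.53% of all genes were), and 5 moved the other way. With lane number as a covariate 16 passed (1.38% of all genes), all as in HO_TASTPM. In TAS10 minus WILD, 3 passed (0.152% of all genes did), with App and Thy1 among them. In TPM-line minus WILD, 1 passed (0.019% of all genes). In TAU minus WILD, a line that carries neither TASTPM transgene, 34 passed (26.6%, against 14.7% of all genes), 33 of them as in HO_TASTPM. Without the 12 region libraries 14 passed in TAU (10.9%, against 6.08% of all genes), all as in HO_TASTPM. Against TAU, 29 passed in HET_TASTPM (15.4% of all genes), 13 in the HO_TASTPM direction. In TAS10 minus TAU, 15 passed (11.2% of all genes) and 3 moved as in HO_TASTPM, and in TPM-line minus TAU, 28 passed (13.9% of all genes) and 5 did. The 13 in HET_TASTPM minus TAU included Thy1, App, Gm28438, mt-Nd3, AC154550.1, Tmem132b, Entpd4, Gm16867 and Dynlt1b.

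The mitochondrial pair split the libraries without overlap. Gm28438 held 8608 to 12830 TPM in HO_TASTPM (median 9543), 5.4e-05 to 10970 TPM in HET_TASTPM (median 2017), and 8.8e-05 to 1339 TPM in WILD (median 143.5). mt-Nd3 held 3419 to 8859 TPM in HO_TASTPM (median 4796), 3133 to 25860 TPM in HET_TASTPM (median 12410), and 14160 to 23120 TPM in WILD (median 17690). Gm28438 was at 8575 TPM or more in 22 libraries and at 3790 TPM or less in the other 81. The 22 were all 15 HO_TASTPM libraries, 3 of 4 HET_TASTPM libraries at 8 months and all 4 at 18 months, and none of TAS10, the TPM line, TAU or WILD. mt-Nd3 ran the opposite way in the same libraries, at 3133 to 8859 TPM in the 22 and at 11730 to 25860 TPM in the 81. No library lay between the ranges of either gene.

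Summed, the pair differed less than either row. The sum of mt-Nd3 and Gm28438 had a median of 14830 TPM in HO_TASTPM (12860 to 20510), 15570 TPM in HET_TASTPM and 17720 TPM in WILD (14270 to 23540). Gm28438 took a median of 68.0% of this sum in HO_TASTPM, 13.8% in HET_TASTPM and 0.766% in WILD. In HET_TASTPM mice mt-Nd3 was lower than in WILD by 0.91 (SE 0.10, adjusted p = 3.43e-11) and lower than in TAU by 0.86 (adjusted p = 1.96e-07). It fell by 1.88 at 18 months relative to 2 months in that line (SE 0.23, adjusted p = 1.47e-09), and its HET_TASTPM minus WILD difference changed by -1.75 over the same ages (adjusted p = 1.62e-05). Within lanes 6 to 8 alone, over 2, 4 and 8 months, the HET_TASTPM minus WILD difference of mt-Nd3 was -0.60 and did not pass (adjusted p = 0.375). That contrast leaves out 18 months, when HET_TASTPM held 3133 to 7375 TPM. It takes in 2 and 4 months, when HET_TASTPM held 11730 to 25860 and 13090 to 18300 TPM over all lanes. Reads of near-identical rows can be divided between them by the quantifier, so the level of each row alone is uncertain.

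**Figure D3:**
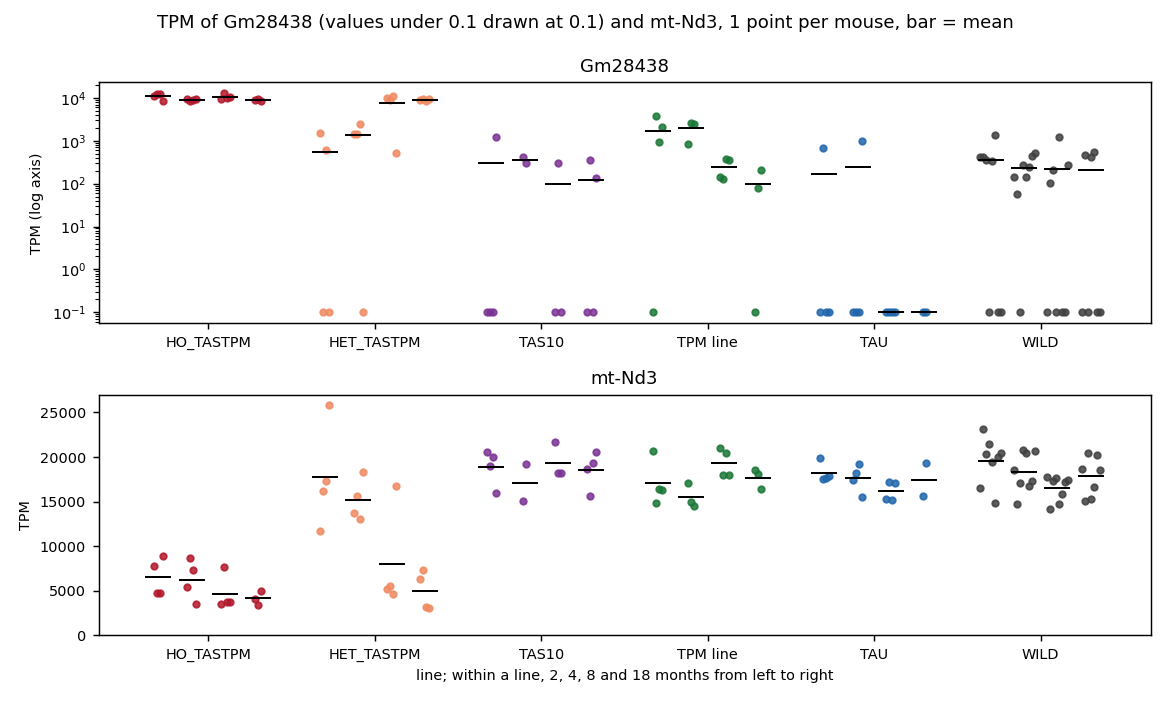
Gm28438 (TPM, log axis, values under 0.1 drawn at 0.1) and mt-Nd3 (TPM) in each mouse, by line and, within a line, from 2 to 18 months, with a bar at the mean of each age group. All HO_TASTPM mice and 7 of the 8 HET_TASTPM mice of 8 and 18 months are high in Gm28438, at 8575 TPM or more, and low in mt-Nd3, at 8859 TPM or less.

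Other copies gave values that moved with the lane. Rps27rt and Rpl37rt are retrotransposed copies of ribosomal protein genes, and mt-Ty is the mitochondrial tyrosine tRNA. All were higher in HO_TASTPM, with differences of 1.62, 0.53, 1.20 and 0.51 for Rps27rt, 2.47, 0.61, 1.29 and 0.91 for Rpl37rt, and 3.10, 0.81, 1.56 and 0.67 for mt-Ty at 2, 4, 8 and 18 months. All were lower in HET_TASTPM than in WILD, by 2.39 for Rps27rt (adjusted p = 0.00019, and 0.463 with lane as a covariate), by 1.33 for Rpl37rt (adjusted p = 0.0202) and by 1.61 for mt-Ty (adjusted p = 0.0344). Across lines, Rps27rt took a median of 85.5% of the Rps27 plus Rps27rt sum in the 67 libraries of lanes 1 to 5 and 7.59% in the 36 libraries of lanes 6 to 8. For Rpl37rt the medians were 31.9% and 3.79%. mt-Ty had a WILD median of 103.5 TPM in lanes 1 to 5 and 8.27 TPM in lanes 6 to 8. The split was not complete, since the share of Rps27rt was 6.56% in 1 WILD library of lanes 1 to 5 and as high as 94.6% in WILD libraries of lanes 6 to 8. With lane number as a covariate the HET_TASTPM minus WILD differences of Rpl37rt and mt-Ty were 0.17 and 0.72, the opposite sign, and neither passed. All 3 left the set when lanes 1 to 5 alone were used.

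Gm10925, a copy of mt-Atp6 next to Gm28438 on chromosome 1 (chr1:24613974-24614651), was lower in HO_TASTPM, with 0.097 to 1489 TPM (median 247), against 0.14 to 8851 TPM in WILD (median 837). It carries no difference from mt-Atp6 over the 678 bases compared. Its share of the joint sum had a median of 2.11% in lanes 1 to 5 and 17.8% in lanes 6 to 8. In lanes 1 to 5 it missed the limit at 8 months alone. Its differences there were -1.38, -5.55, -0.48 and -0.56 at 2, 4, 8 and 18 months (mean -1.99, against -2.37 with all libraries). Gm28438 was at or below 1339 TPM in all WILD libraries of both lane groups, whereas in HET_TASTPM it had a median of 8575 TPM (highest 10970) in the 13 libraries of lanes 6 to 8 and of 0.000485 TPM (highest 1555) in the 3 of lanes 1 to 5. All 7 HET_TASTPM libraries with a high level were in lanes 6 to 8, as was every HET_TASTPM library of 8 and 18 months. In the same lanes, the 2 HET_TASTPM libraries of 2 months, the 3 of 4 months and all 9 WILD libraries had a low level. All 15 HO_TASTPM libraries had a high level in lanes 1 to 5. With no HET_TASTPM library of 8 or 18 months in lanes 1 to 5, age and lane cannot be fully separated within that line. The HET_TASTPM minus WILD difference of Gm28438 was 4.75 (SE 1.28, adjusted p = 0.00802), and 2.51 with lane as a covariate, which did not pass (adjusted p = 0.575).

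**Figure D4:**
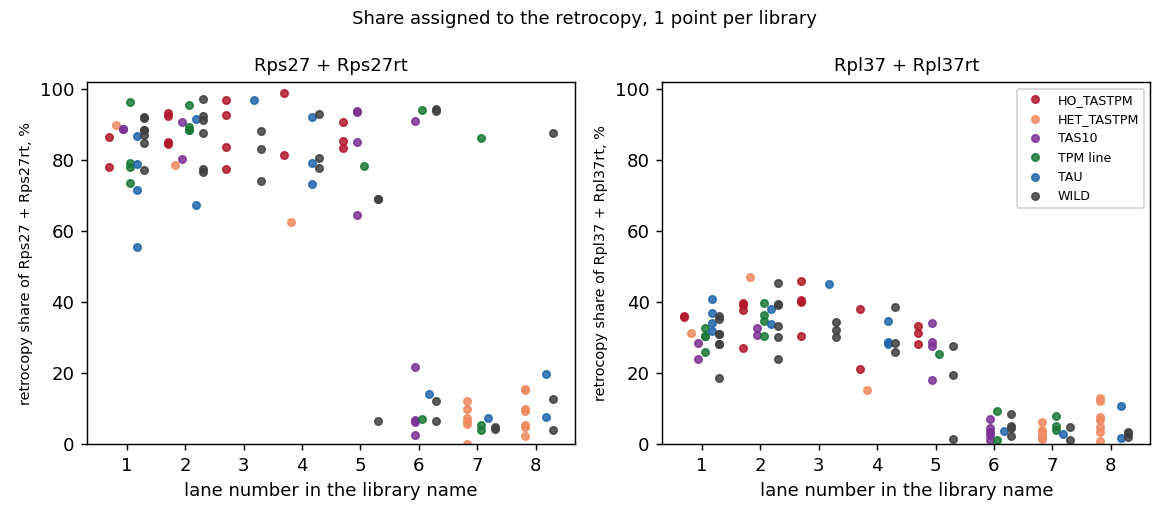
Share of the retrotransposed copy in the sum of gene and copy (percent) for Rps27rt and Rpl37rt, 1 point per library, against the lane number in the library name. Rps27rt has a median share of 85.5% in lanes 1 to 5 and 7.59% in lanes 6 to 8, with exceptions in both.

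On chromosome 14, 3 neighbours were lower together. Entpd4 (chr14:69337174-69367270), which encodes a nucleotide-hydrolysing enzyme of the Golgi and lysosome and is 1 of 8 listed genes known to vary among C57BL/6 substrains or mouse strains, held 20.1 to 35.97 TPM in HO_TASTPM (median 29.3), 39.6 to 50.4 TPM in HET_TASTPM (median 45.3) and 36.9 to 67.3 TPM in WILD (median 52.3). Its HO_TASTPM range ended just below the lowest WILD library. Gm16867 (chr14:69363504-69503362), annotated as protein coding, held 0.13 to 0.56 TPM in HO_TASTPM, 1.17 to 4.43 TPM in HET_TASTPM and 1.28 to 10.5 TPM in WILD. Gm27177 (chr14:69582164-69683286), an antisense RNA, held 1.07 to 3.68 TPM in HO_TASTPM and 1.31 to 11.2 TPM in WILD, and those ranges overlapped. In HET_TASTPM none of the 3 passed against WILD, with differences of -0.14 for Entpd4 (adjusted p = 0.123), -0.44 for Gm16867 (adjusted p = 0.102) and -0.39 for Gm27177 (adjusted p = 0.228). Against TAU, Entpd4 was lower in HET_TASTPM by 0.21 (adjusted p = 0.0332) and in the TPM line by 0.36 (adjusted p = 0.000375), and Gm16867 was lower in HET_TASTPM by 0.65 (adjusted p = 0.0265). Against TAU the HET_TASTPM call of Entpd4 was lost with lane as a covariate (-0.20) and without the region libraries (-0.21), and that of Gm16867 without the region libraries (-0.54).

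Of the other 7 listed strain genes 6 met the filter and none was among the 128. Nnt, the mitochondrial transhydrogenase gene that C57BL/6J mice carry in part-deleted form, had differences of 0.31, 0.29, 0.94 and 0.47, of which 3 were under the limit.

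Tmem132b and AC154550.1 took intermediate values in HET_TASTPM. Tmem132b (chr5:125531774-125792583), a membrane protein gene of neurons, held 4.95 to 19.9 TPM in HO_TASTPM (median 7.76), 13.5 to 25.8 TPM in HET_TASTPM (median 16.4) and 20.2 to 35.3 TPM in WILD (median 27.7). The HO_TASTPM libraries all lay below WILD, and HET_TASTPM overlapped both. Tmem132b was lower in HET_TASTPM than in WILD by 0.63 (SE 0.10, adjusted p = 2.13e-06) and than in TAU by 0.48 (SE 0.12, adjusted p = 0.00262), and it held 22.1 to 28.4 TPM in TAS10 and 20.5 to 32.4 TPM in the TPM line. With lane as a covariate the difference from TAU was -0.32 and did not pass, and within lanes 6 to 8 the difference from WILD was -0.46 (adjusted p = 0.234). AC154550.1, an unplaced row, held 4.21 to 11.2 TPM in HO_TASTPM (median 7.52), 3.69 to 7.04 TPM in HET_TASTPM (median 5.06) and 1.48 to 4.35 TPM in WILD (median 3.06). It was higher in HET_TASTPM than in WILD by 0.72 (SE 0.10, adjusted p = 1.82e-07), than in TAU by 0.75 (adjusted p = 7.95e-06), and than in WILD within lanes 6 to 8 by 0.89 (adjusted p = 0.000641).

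Fam204a, AC153954.1 and Gm42031 had 14, 14 and 13 of 15 HO_TASTPM libraries beyond the WILD range, Tmem267 had 6, and none of the 4 passed in HET_TASTPM minus WILD. Fam204a (chr19:60198586-60226701) held 6.79 to 12.0 TPM in HO_TASTPM, 10.2 to 19.95 TPM in HET_TASTPM and 12.0 to 20.2 TPM in WILD, and its HET_TASTPM minus WILD difference was -0.01 (adjusted p = 0.993). AC153954.1, unplaced, held 56.6 to 92.1 TPM in HO_TASTPM, 34.9 to 57.2 TPM in HET_TASTPM and 29.1 to 58.0 TPM in WILD, with a HET_TASTPM difference of 0.08 (adjusted p = 0.531). Tmem267 (chr13:119488039-119611059) held 9.67 to 20.5 TPM in HO_TASTPM, 12.1 to 51.4 TPM in HET_TASTPM and 15.7 to 49.98 TPM in WILD, with a HET_TASTPM difference of 0.04 (adjusted p = 0.892). Gm42031, a long intergenic RNA (chr8:85125872-85132289), held 4.45 to 12.0 TPM in HO_TASTPM, 2.63 to 4.95 TPM in HET_TASTPM and 2.08 to 4.57 TPM in WILD, and its HO_TASTPM difference was 0.53 at 2 months and 1.69 at 8 months. Without the region libraries Fam204a missed the limit at 8 months (-0.49), and its mean difference was -0.65, against -0.63 with all libraries. No test compared HO_TASTPM with HET_TASTPM, since the HO_TASTPM libraries chose the genes. Dynlt1b, a dynein light chain gene with near-identical copies on chromosome 17 whose counts are therefore uncertain, was higher in HET_TASTPM than in WILD by 0.55 (adjusted p = 0.00177), and by 0.25 with lane as a covariate, which did not pass.

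**Figure D5:**
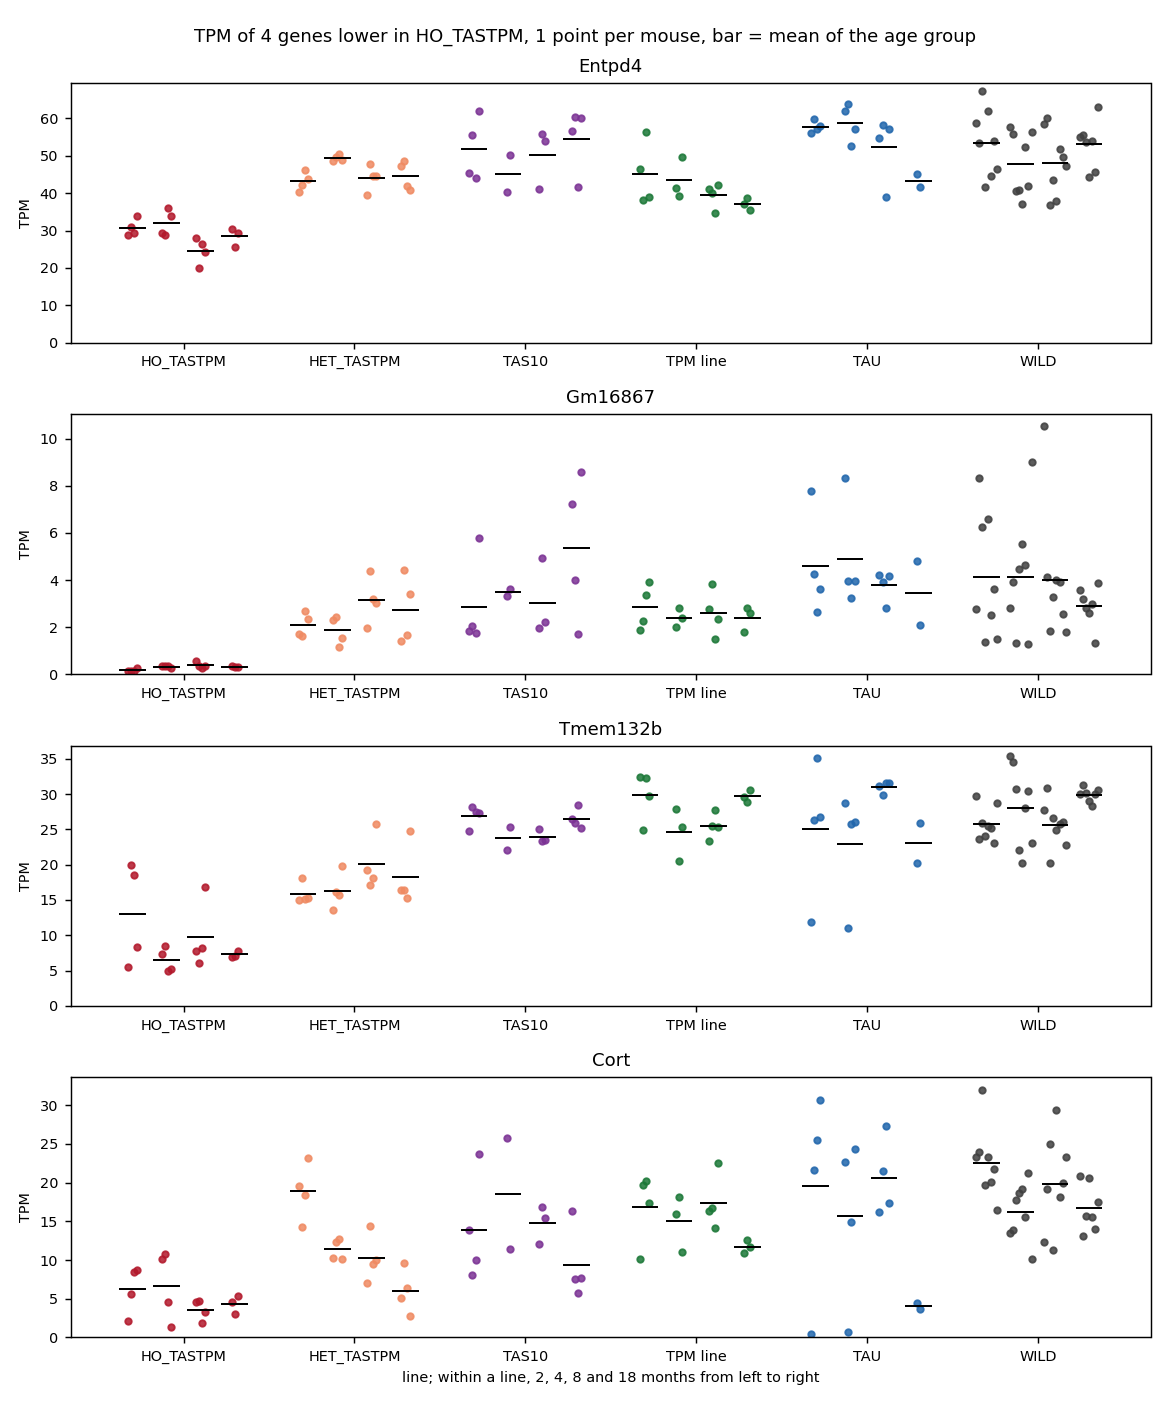
Entpd4, Gm16867, Tmem132b and Cort levels (TPM) in each mouse, by line and, within a line, from 2 to 18 months, with a bar at the mean of each age group. The 15 HO_TASTPM libraries lie below all 31 WILD libraries for Entpd4, Gm16867 and Tmem132b, and 13 of 15 do for Cort.

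Cort, Crhbp, Sst and Npy, which are known from inhibitory interneurons, were among the 51 lower genes. They stood in no fixed list of interneuron genes, and Crhbp, Sst and Npy were picked after their values were seen. Cort, which encodes cortistatin, held 1.34 to 10.8 TPM in HO_TASTPM (median 4.57), 2.78 to 23.1 TPM in HET_TASTPM (median 10.2) and 10.1 to 32.0 TPM in WILD (median 19.1), with differences of -1.92, -1.50, -2.31 and -1.86 from 2 to 18 months. Crhbp, the binding protein of corticotropin-releasing hormone, held 3.799 to 14.8 TPM in HO_TASTPM (median 10.7), 8.97 to 25.0 TPM in HET_TASTPM (median 16.5) and 16.3 to 31.0 TPM in WILD (median 23.3), with no overlap between HO_TASTPM and WILD. Sst, somatostatin, held 163 to 454 TPM in HO_TASTPM (median 283), 303 to 1061 TPM in HET_TASTPM (median 615) and 351 to 934 TPM in WILD (median 518). Npy, neuropeptide Y, held 42.1 to 217 TPM in HO_TASTPM (median 79.7), 95.1 to 245 TPM in HET_TASTPM (median 155) and 118 to 391 TPM in WILD (median 160). Sst and Npy overlapped with WILD in 4 and 2 of the 15 HO_TASTPM libraries.

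In HET_TASTPM these genes moved less evenly. Crhbp was lower than in WILD by 0.49 (SE 0.12, adjusted p = 0.00327) and Cort by 0.79 (SE 0.24, adjusted p = 0.0206), whereas the differences of Sst and Npy were 0.07 (adjusted p = 0.819) and -0.17 (adjusted p = 0.655). Sst fell by 1.04 in HET_TASTPM at 18 months relative to 2 months (SE 0.29, adjusted p = 0.0213). Its HET_TASTPM minus WILD difference changed by -0.40 over those ages, which did not pass (adjusted p = 0.696). Crhbp, Cort and Sst were also lower in TAU than in WILD, by 0.63, 0.88 and 0.46 (adjusted p = 0.000158, 0.0108 and 0.0135). The Cort difference in HET_TASTPM was -0.84 with lane as a covariate and no longer passed, and within lanes 6 to 8 neither Crhbp (-0.31, adjusted p = 0.753) nor Cort (-0.73, adjusted p = 0.666) passed. Other lower genes of neurons were Bdnf, a growth factor of synapses (median 10.4 TPM in HO_TASTPM, against 15.5 TPM in WILD), Itpka, an inositol trisphosphate kinase of dendritic spines (median 73.6 TPM in HO_TASTPM, against 125 TPM in WILD), and Neurod6, a transcription factor of excitatory neurons (median 96.9 TPM in HO_TASTPM, against 147 TPM in WILD). Neurod6 was at 3.32, 7.86 and 9.11 TPM in 3 of the 5 HO_TASTPM libraries with a high region score, and at 61.4 TPM or more in those below the limit. Without the 12 region libraries, which left only HO_TASTPM replicate 1 at 4 months, Cort, Crhbp and Npy still met the limit at every age. Sst missed it at 4 months alone (-0.23), with a mean difference of -0.85, against -0.96 with all libraries. Itpka missed it at 8 months alone (-0.49), with a mean of -0.59. Bdnf missed it at 2, 4 and 8 months, with a mean of -0.43, and so did Neurod6, with a mean of -0.27. At 4 months 3 of 4 HO_TASTPM libraries were above the region limit. There the listed markers of hippocampal excitatory neurons had a median difference of -1.79 and those of neighbouring regions 1.79, against 0.08 over all genes. Both lists define the region score, so these medians partly restate which libraries it set apart. The part of tissue composition in these lower genes of neurons was not tested.

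Of 27 listed microglial markers Clec7a was the one among the 128. Clec7a, the pattern-recognition receptor dectin-1 and a marker of plaque-associated microglia, averaged 0.843 ± 0.581, 7.97 ± 4.39, 54.1 ± 11.6 and 46.7 ± 15.5 TPM in HO_TASTPM at 2, 4, 8 and 18 months (SD, n = 4, 4, 4 and 3), against 0.204 ± 0.0784, 0.406 ± 0.229, 0.541 ± 0.362 and 1.78 ± 0.976 TPM in WILD (SD, n = 8, 8, 8 and 7). The differences were 0.85, 3.14, 5.77 and 4.46, largest at 8 months. At 2 months the 4 HO_TASTPM libraries held 0.404, 0.475, 0.823 and 1.67 TPM, and the highest WILD library at that age 0.324 TPM. The choice of genes required a difference at 2 months, and these levels are of the order of the 0.5 added to TPM. HET_TASTPM averaged 0.449, 0.907, 10.4 and 24.9 TPM of Clec7a at the same ages. The HET_TASTPM minus WILD difference over the ages was 1.99 (adjusted p = 3.85e-18), the rise at 18 months relative to 2 months in HET_TASTPM was 4.72 (adjusted p = 1.04e-18), and the HET_TASTPM minus WILD difference widened by 3.15 over those ages (adjusted p = 2.4e-07). With lane as a covariate these were 1.92, 4.74 and 3.02, and all passed.

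Slamf9, Gpr84, Lsp1 and Ccl3, known from immune cells but in no fixed list, were also higher. Slamf9, a receptor of myeloid cells, averaged 1.29 TPM in HO_TASTPM against 0.539 TPM in WILD at 2 months and 8.14 TPM against 1.33 TPM at 18 months. Gpr84, a receptor for medium-chain fatty acids, averaged 0.911 TPM in HO_TASTPM against 0.504 TPM in WILD at 2 months and 7.48 TPM against 0.997 TPM at 18 months. In lanes 1 to 5 the Gpr84 difference at 2 months was 0.38, and that of Hcst without the region libraries 0.42, both under the limit. Slamf9 and Lsp1 stayed in the set under both settings. Lsp1, an actin-binding protein of leukocytes, averaged 3.34 TPM in HO_TASTPM against 1.64 TPM in WILD at 2 months and 14.9 TPM against 3.25 TPM at 18 months. Ccl3, a chemokine, averaged 2.33 TPM in HO_TASTPM at 2 months, where 1 library, the one above the region limit, held 7.01 TPM, against 0.768 TPM in WILD. Its differences were 0.61, 1.94, 4.76 and 4.06 from 2 to 18 months, and without the region libraries that at 2 months was -0.07, outside the limit. Clec7a, Ccl3, Gm43351, Slamf9, Gpr84, Lsp1, Hcst and Bcl2a1a all passed in HET_TASTPM minus WILD. With lane as a covariate Gm43351 (0.29, adjusted p = 0.736) and Bcl2a1a (0.49, adjusted p = 0.375) no longer passed, and the other 6 did. Within lanes 6 to 8, which leave out 18 months, Clec7a alone of these 8 passed. There the differences were 1.27 for Ccl3 (adjusted p = 0.208), 0.79 for Slamf9 (adjusted p = 0.11), 0.41 for Gpr84 (adjusted p = 0.617), 0.53 for Lsp1 (adjusted p = 0.254) and 0.84 for Hcst (adjusted p = 0.585), and those of Gm43351 and Bcl2a1a were 0.17 and 0.22. Klk6, a secreted protease of oligodendrocytes, averaged 54.4 TPM in HO_TASTPM at 18 months against 3.39 TPM in WILD and its difference without the region libraries was 0.0985 at 2 months and -0.0045 at 4 months. With age, 16 of the 128 passed in HET_TASTPM at 18 against 2 months (4.07% of all genes), 15 in the HO_TASTPM direction, including these 8 and Klk6. The test of whether the HET_TASTPM minus WILD difference changed between those ages passed in 9 (1.6% of all genes), 7 in the HO_TASTPM direction. It did not pass for Klk6, Hcst or Bcl2a1a (adjusted p = 0.31, 0.307 and 0.0728). With lane as a covariate it passed in 4 (0.662% of all genes), namely Clec7a, Ccl3, Gpr84 and mt-Nd3.

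Whole marker lists at 2 months gave small values beside these genes. The median HO_TASTPM minus WILD difference of 12 microglial markers was 0.01, 0.38, 1.92 and 1.59 at 2, 4, 8 and 18 months, and that of 15 plaque-associated microglial markers 0.08, 0.75, 2.25 and 2.47, against 0.03, 0.08, -0.03 and 0.04 over all genes. Of those 15, Clec7a was 1 of the 128 and the other 14 were not, and none of the 12 was. In TAU mice Clec7a was also higher than in WILD, by 1.91 (adjusted p = 1.09e-15), and Slamf9 by 0.96. App and Thy1 were not called in TAU, with differences of 0.05 and -0.16 (adjusted p = 0.827 and 0.467).

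Neighbours moved in both directions outside chromosome 14. On chromosome 7, Lsp1, Prr33 and Tspan32, a tetraspanin of blood cells, were all higher, with differences averaged over the ages of 0.94 for Prr33 and 0.69 for Tspan32. Tspan32 held 0.19 to 1.39 TPM in HO_TASTPM (median 0.781), against 0.013 to 0.682 TPM in WILD (median 0.244). On chromosome 5 the RNA rows Gm7832 and Gm28271 were both lower, at -1.14 and -1.67 in the same measure, and Gm28271 held a median of 1.95 TPM in HO_TASTPM, against 11.1 TPM in WILD. Without the region libraries Gm7832 missed the limit at 2 months (-0.22, mean -0.78), Gm28271 turned to 0.23 at 2 months (mean -0.93), and Prr33 was 0.26 at 4 months and 0.41 at 8 months (mean 0.68). Other neighbours split: Nhlh1, a transcription factor of developing neurons, was lower beside Slamf9 and Cfap126, a gene of motile cilia, on chromosome 1, and Gm12576 was lower beside Ccl3 on chromosome 11. Nhlh1 held a median of 0.314 TPM in HO_TASTPM, against 1.11 TPM in WILD, and was lower in HET_TASTPM than in WILD by 0.65 (adjusted p = 0.00167), and by 0.35 with lane as a covariate, which did not pass. Without the region libraries the HO_TASTPM difference of Nhlh1 at 4 months, from replicate 1 alone, was -0.13 (mean -0.75). That of Cfap126 was -0.51, the opposite sign (mean 0.32, against 0.68 with all libraries). Gm12576, a long intergenic RNA, held 0.122 to 0.394 TPM in HO_TASTPM, against 0.293 to 1.15 TPM in WILD, and was lower in HET_TASTPM by 0.45 (adjusted p = 1.29e-05). Within lanes 6 to 8 the differences of Nhlh1 and Gm12576 were -0.46 and -0.36, and neither passed (adjusted p = 0.685 and 0.369).

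Gal, Syt6 and Arhgap15 had 4, 5 and 9 of 15 HO_TASTPM libraries beyond the WILD range. Gal, the neuropeptide galanin, held 0 to 46.6 TPM in HO_TASTPM (median 1.20), against 0.26 to 3.96 TPM in WILD (median 0.635). Syt6, a synaptotagmin, held 2.26 to 26.3 TPM in HO_TASTPM (median 3.35), against 1.39 to 6.23 TPM in WILD (median 2.18). Arhgap15, a GTPase-activating protein, held 1.18 to 12.2 TPM in HO_TASTPM (median 7.27), against 7.53 to 15.2 TPM in WILD (median 10.5). Gal, Syt6, Arhgap15, Ptprv, Cacna1s, Prkch, Gstp2 and Mylk3 each missed the limit at some age without the region libraries. The mean difference without them was 0.16 for Gal (1.22 with all libraries), 0.32 for Syt6 (0.89), -0.34 for Arhgap15 (-0.86) and 0.27 for Prkch (0.80), whereas Gstp2 was at 0.65 (0.70). None of the 8 passed in HET_TASTPM minus WILD.

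Short and copied rows were often at 0. Mir34a, a microRNA hairpin row, was at 0 to 9.01 TPM in HO_TASTPM (median 5.99), 0 to 15.7 TPM in HET_TASTPM (median 0) and 0 to 7.39 TPM in WILD (median 0), and its HET_TASTPM minus WILD difference was -0.08 (adjusted p = 0.963). Vis1, a structured RNA row, was at 1.81 to 13.5 TPM in HO_TASTPM (median 6.42), 0 to 21.1 TPM in HET_TASTPM (median 2.61) and 0 to 6.58 TPM in WILD (median 2.10). Rpl10a-ps1, a processed copy of a ribosomal protein gene, held 0.014 to 66.4 TPM in HO_TASTPM (median 38.3), against 0.011 to 55.3 TPM in WILD (median 0.0372), and its HET_TASTPM minus WILD difference was -1.95 (adjusted p = 0.0852). Gm23573, a small nuclear RNA row, held 0 to 64.8 TPM in HO_TASTPM (median 26.3), against 13.7 to 139 TPM in WILD (median 65.5). The rows Gm24887, n-R5s40, Gm24391, Gm10964, Gm24379, Gm27875 and Gm28010 each held at least 1 library at 0 in both HO_TASTPM and WILD, and none passed in HET_TASTPM minus WILD. In poly(A)-selected libraries such rows are scaled by a short length and do not measure mature microRNA. Of the 42 genes lost when lanes 1 to 5 alone were used, 16 were short non-coding RNAs and 15 protein coding.

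Within lanes 6 to 8, where 2-, 4- and 8-month HET_TASTPM and WILD libraries could be set side by side, 5 of the 128 passed (0.493% of 25779 genes did), among them Thy1, App, Clec7a and AC154550.1. Thy1 was higher in HET_TASTPM by 2.58 (adjusted p = 1.02e-07), App by 1.87 (adjusted p = 5.98e-08) and Clec7a by 1.26 (adjusted p = 0.00937). At 4 months lanes 6 to 8 held 1 WILD library. The set of 128 itself depended on which libraries entered. Without the 12 region libraries, with only HO_TASTPM replicate 1 left at 4 months, 60 of the 128 still met the limits. In lanes 1 to 5 alone 86 did. Thy1, App, Gm28438, Clec7a, Slamf9, Lsp1, Entpd4, Tmem132b, mt-Nd3, Crhbp, Cort, Npy, Gm16867 and AC154550.1 were among the 27 that stayed when any 1 HO_TASTPM or WILD library was left out.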

How the data were processed

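Hippocampal poly(A) RNA of 103 mice was sequenced with strand-specific libraries by the authors, whose processing notes name Trim Galore, Salmon and GRCm38, per the labels. The authors deposited 1 table of TPM values per gene, each library summing to 1000000, so the depth of each library cannot be read from it (the study's methods give only a common read yield), and precision rests on the 2 to 8 mice per line and age. Lines and ages came from the labels, which do not state litters, so p-values measure the spread between these mice. The members and lists were chosen with earlier results of these data known.

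Levels were analysed as log2(TPM + 0.5) by limma (version 3.58.1, R 4.3.3), fitting a mean to each of the 24 groups of line and age (79 residual degrees of freedom) with a mean-variance trend. The 26272 genes tested averaged 0.5 TPM or more in some group, with Benjamini-Hochberg adjustment over all of them (threshold 0.05). Contrasts between lines average the 4 ages. Named genes were App and Thy1, the 15 members with the largest and the 10 with the smallest mean difference among those averaging 1 TPM or more in HO_TASTPM or WILD, those called in HET_TASTPM and also in TAS10 or the TPM line, those within 1 Mb of another, those in a list and those at the limit. Sst, Npy, Crhbp, Bdnf, Gpr84, Hcst, Bcl2a1a, Rps27rt, Rpl37rt, AC154550.1, Dynlt1b, Fam204a and Tmem267 fell outside this rule and were chosen after their values were seen. Some genes are not reported here. The fit was tested on simulated data. Positions came from GENCODE M21. Alternatives were other pseudocounts, filters and normalizations, lane as a covariate, single libraries and region libraries left out, and, added after seeing the data, lanes 1 to 5 and 6 to 8 apart.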

Additional observations from a re-analysis of the deposited data

Results flagged for a closer look

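Of 198 groups of 4 to 10 libraries looked at for single genes, 21 had a lowest or highest library far from the rest, by Dixon's test at 95%, where chance gives about 1 in 20. App stood apart in HO_TASTPM at 8 months (lowest library 532.1 TPM, the library with the highest region score) and in WILD at 2 months (highest 534.9 TPM), 4 months (lowest 385.7 TPM) and 8 months (highest 579.9 TPM). Thy1 did so in TAS10 at 2 months (lowest 2113 TPM). Gm28438 had single high libraries in TAS10 at 2 months (1194 TPM), TAU at 2 and 4 months (677.3 and 974.4 TPM) and WILD at 2 and 8 months (1339 and 1211 TPM). mt-Nd3 had single high libraries in HO_TASTPM at 8 months (7673 TPM), HET_TASTPM at 8 months (16720 TPM, the HET_TASTPM library of that age with low Gm28438) and TAU at 2 months (19880 TPM). Gm16867 had single high libraries in HO_TASTPM at 2 months (0.2816 TPM), TAS10 at 2 months (5.766 TPM), TAU at 4 months (8.33 TPM) and WILD at 8 months (10.52 TPM). Tmem132b stood apart in HET_TASTPM at 2 months (highest 18.11 TPM) and 18 months (highest 24.83 TPM) and in TAU at 4 months (lowest 11.04 TPM), and Clec7a in TAU at 8 months (highest 3.549 TPM).

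The HET_TASTPM minus WILD difference changed between 2 and 18 months, by limma's interaction term, in 9 of the 128 genes (1.6% of all genes). It changed by 3.15 for Clec7a, 3.52 for Ccl3, 2.18 for Gm43351, 1.18 for Slamf9, 1.55 for Gpr84 and 1.04 for Lsp1 on the log2 scale, each toward a larger HET_TASTPM level. It changed by -1.75 for mt-Nd3. It changed by -4.66 for Rpl37rt and by -5.43 for Rps27rt, the rows whose share moved with the lane number, and at 18 months all 4 HET_TASTPM libraries were in lanes 6 to 8 and all 7 WILD libraries in lanes 1 to 5, so line and lane cannot be told apart there. With lane as a covariate the change passed in 4 of the 9 (0.662% of all genes), namely Clec7a, Ccl3, Gpr84 and mt-Nd3.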

How the results depend on the processing

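The number of genes was 128 as described, 269 with a pseudocount of 0.1, 84 with a pseudocount of 1, 433 with a limit of 0.3 and 14 with a limit of 1. Leaving out 1 library gave 97 to 152 genes, 97 without HO_TASTPM replicate 1 at 2 months. Counts of genes that passed in the HO_TASTPM direction, leaving out 1 library, ran from 25 to 28 for HET_TASTPM minus WILD, 2 to 3 for TAS10 minus WILD, 1 to 2 for the TPM line minus WILD, 20 to 40 for TAU minus WILD, 10 to 14 for HET_TASTPM minus TAU, 3 to 4 for TAS10 minus TAU, 3 to 6 for the TPM line minus TAU, 14 to 16 for HET_TASTPM at 18 against 2 months and 4 to 7 for its change relative to WILD. The TAU minus WILD count was 20 without TAU replicate 1 at 18 months and 21 without TAU replicate 1 at 2 months, the TPM line minus TAU count 3 without TAU replicate 1 at 18 months or TPM-line replicate 3 at 4 months, and the change relative to WILD 4 without HET_TASTPM replicate 3 at 18 months. With lane as a covariate, HET_TASTPM minus WILD gave 16, the TPM line minus WILD 2 and the change relative to WILD 4. In either direction, 1.38%, 0.255% and 0.662% of all genes passed there. Quantile normalization gave 2 for the TPM line minus WILD. Without the region libraries TAU minus WILD gave 14, the TPM line minus TAU 3 and the TPM line minus WILD 2. In either direction, 6.08%, 7.11% and 0.22% of all genes passed there. In lanes 1 to 5 TAU minus WILD gave 9 and the TPM line minus TAU 2, where the share over all genes was not computed. In lanes 6 to 8 HET_TASTPM minus WILD gave 5 (0.493% of all genes). The change relative to WILD gave 3 with a pseudocount of 0.1 and 4 with no filter on low values. The cause of these changes was not tested. Reversed signs in HET_TASTPM minus WILD were 0.17 for Rpl37rt and 0.72 for mt-Ty with lane as a covariate, and 0.96 for Rpl37rt in lanes 6 to 8. No paired analysis was possible because mouse numbers are unique and pair no samples across lines. TPM values carry no depth, so no limit of detection can be given for low rows.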
